A study of Ictidomys tridecemlineatus with 15 samples.

Results

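A set of 10 genes of lipid droplet and triglyceride turnover were examined by GRO-seq in the liver of 13-lined ground squirrels across 5 physiological states: Plin2, Plin4, Plin5, Pnpla2, Mgll, Dgat1, Dgat2, Lpin1, Lpin2 and Cidec. GRO-seq (global run-on sequencing) labels the RNA that engaged polymerases extend in isolated nuclei. It thus reports polymerases that were engaged when the tissue was taken, rather than stored RNA. Members were found by symbol: every transcribed unit of the count table with 1 of the 10 names was taken. Of the 10 symbols, 7 had a unit, in 6 of the 6324 units of the table. Mgll, Dgat1 and Cidec had no unit and were not analysed here.

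The animals were laboratory-housed females of a breeding colony and gave 1 liver library each. By the paper, body temperature was taken with an implanted sensor or a rectal probe. In every sample, also those of torpid animals, the nuclear run-on lasted 7 min at 30 °C. SA animals were homeothermic and had not yet begun to hibernate. The other 4 states belong to hibernation: IBA animals were warm between torpor bouts, Ent animals were cooling into torpor, and ET and LT animals were in early and late torpor. The authors propose that initiation and termination stop in torpor and that elongation goes on very slowly. A higher level in ET or LT is therefore a larger share of engaged polymerases and need not be new initiation in the cold. Each state had 3 libraries except LT, which had 2, because LT replicate 2 has no column in the table and was not used here. The authors removed an LT library of relatively poor quality that was also an outlier in a principal component analysis. The spread within LT is thus that of the 2 libraries kept. By the sample metadata, the ET animals came from 1 collection season, which no other state shares, the IBA animals from another and the LT animals from yet another, while SA and Ent mixed those of IBA and LT. Season and state therefore cannot be told apart in comparisons with ET. IBA and LT share no season either, so their difference can be separated from season only through a season term estimated from SA and Ent.

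In liver, triglyceride is built by adding fatty acyl chains to a glycerol backbone. The lipins Lpin1 and Lpin2 remove the phosphate from phosphatidic acid to give diacylglycerol, and the acyltransferase Dgat2 adds the last acyl chain. The product is stored in lipid droplets coated by perilipins, of which Plin2 is the usual coat protein of the hepatocyte droplet, and is released again by lipases, starting with Pnpla2 (adipose triglyceride lipase, ATGL). A hibernating ground squirrel does not eat for months and lives largely on stored fat.

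Only Lpin1 and Lpin2 had units of their own. On the HiC_Itri_2 genome, Lpin1 covers 92296 nt of the plus strand of chromosome Itri12, from 52819663 to 52911958, and Lpin2 covers 79373 nt of the minus strand of Itri13, from 65911413 to 65990785. The authors merged overlapping genes, and 4 units carry several names, so that their reads cannot be divided among the genes. Plin2 shares 63818 nt on the minus strand of Itri3, from 153326519 to 153390336, with Haus6, a subunit of the augmin complex of the mitotic spindle (the Plin2 unit). Plin4 and Plin5 share 25703 nt on the plus strand of Itri2, from 215194568 to 215220270, with Lrg1, a gene for a secreted glycoprotein (the Plin4/Plin5 unit). Dgat2 shares 354389 nt on the plus strand of Itri3, from 62915401 to 63269789, with Uvrag, an autophagy gene (the Dgat2 unit). Pnpla2 lies in a unit of 24139 nt on the plus strand of Itri3, from 575395 to 599533, with the ribosomal protein gene Rplp2, a small nucleolar RNA, Cracr2b and Cd151 (the Pnpla2 unit). In RefSeq's annotation of a different assembly of this squirrel, all 10 symbols are present and 0 protein-coding genes lie between the genes that share any of these units. None of the 6 units had another unit ending within 20 kb upstream on the same strand. This search could not find genes already merged into a unit or genes without a unit. It therefore cannot show that no transcription ran in from upstream.

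Between 3713883 and 8884763 reads per library fell on units. Levels are CPM, the counts divided by the TMM-scaled library size in units of 1e6 reads, and are thus shares of each library that cannot show a change in total transcription. Tests are from a single edgeR quasi-likelihood fit of all 14 libraries and all 6324 units, with Benjamini-Hochberg adjustment across the whole table, and a unit was called at an adjusted p of 0.001 or less. Hepatocyte markers had 10 units for the 9 listed genes, and their summed level spanned 19499 to 28858 CPM in SA, 22469 to 31151 in IBA, 13574 to 15778 in Ent, 5732 to 10994 in ET and 7312 to 11481 in LT. From IBA to the mean of ET and LT, 5 of these 10 units were called, all lower, beside 14.2% of all units called lower. The units Tf and TF:Srprb both match the listed gene Tf. Adipocyte markers had a unit for 1 of 6 listed genes, Cfd, at 52.5 to 82.2 CPM in SA, 30.8 to 42.4 in IBA and 8.77 to 30.1 in Ent, ET and LT. Adipoq, Plin1, Fabp4, Lep and Lipe had no unit. Summed endothelial markers (3 of 6 listed) spanned 186 to 241 CPM in SA, 199 to 228 in IBA and 203 to 241 in Ent. They spanned 124 to 203 in ET and 135 to 148 in LT. The cholangiocyte marker Sox9 (1 of 5) spanned 25.9 to 41.0 in SA, 16.5 to 36.0 in IBA and 29.8 to 46.1 in Ent. In ET it spanned 10.9 to 18.1 and in LT 7.07 to 10.1. Over all libraries the stellate cell marker Rgs5 (1 of 8) spanned 32.9 to 73.0 CPM. The merged unit holding the Kupffer cell marker Cd68 (1 of 8) spanned 236 to 607. For both, the ET range overlapped that of IBA. None of these units was called from IBA to the mean of ET and LT, beside 28.3% of all units. Of the 3 leukocyte markers, 0 had a unit. The part of these differences in the results below was not tested, and in whole liver fewer cells of a type and less transcription per cell cannot be told apart.

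Over the 5 states together, the Pnpla2 unit was the only member called (adjusted p = 0.000508), beside 25.5% of all units, and the call was lost without any 1 of SA replicates 1 or 3, IBA replicates 2 or 3, ET replicates 1 or 3 or the LT libraries (adjusted p up to 0.00183). At an adjusted p of 0.05 the joint test took in 5 of the 6 members, all but the Plin4/Plin5 unit, beside 62% of all units. Neither count stands out from the table as a whole, and what follows describes the single units. From SA to the mean of the 4 hibernation states, the Dgat2 unit fell and was the only member called, beside 11% of all units. From IBA to the mean of ET and LT, the Pnpla2 unit rose and was the only member called, beside 28.3% of all units. In the steps from one state to the next, 0 of the 6 members were called by edgeR, beside 0.0158% of all units in the step from SA to IBA, 0.0316% in that to Ent, 2.21% in that to ET, 0% in that to LT and 17.4% in the return to IBA. At an unadjusted p under 0.05 these steps held 2, 3, 2, 0 and 4 members in the same order, beside 22%, 32.5%, 40.5%, 8.7% and 56.4% of all units. DESeq2 called 2, 1, 0, 0 and 2, beside 3.5%, 7.07%, 14.8%, 0.585% and 31.9%.

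**Figure D1:**
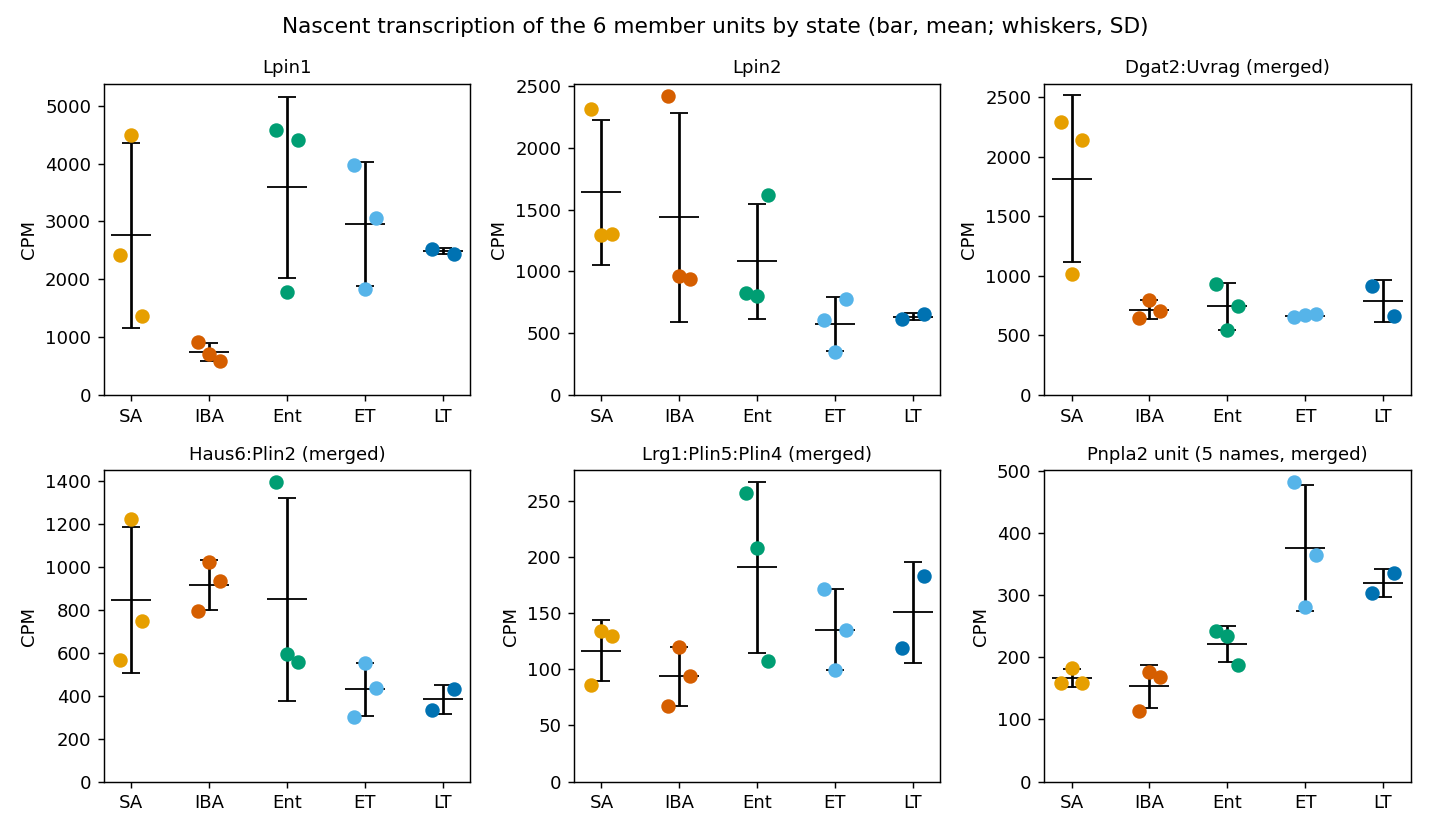
Level of each member unit in CPM (vertical axis, from 0) in every library, by state; points are libraries, horizontal bars are means and whiskers are SDs (n = 3, and n = 2 for LT). The 3 IBA libraries of Lpin1 lie below all 11 others, the 3 SA libraries of the Dgat2 unit lie above all 11 others, and the 5 ET and LT libraries of the Pnpla2 unit lie above the 9 libraries of SA, IBA and Ent.

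Per unit length and averaged over the 14 libraries, the lipins had the highest levels of the members. Lpin1 had 27.2 CPM per kb, which placed it at percentile 99.1 of all units, and Lpin2 had 13.9 CPM per kb, at percentile 97.0. The Plin2 unit had 11.1 CPM per kb (percentile 95.8), the Pnpla2 unit 10.0, the Plin4/Plin5 unit 5.31 (83.8) and the Dgat2 unit 2.70 (55.3). This order did not hold in every state: in IBA Lpin1 had 8.03 CPM per kb against 14.4 for the Plin2 unit, and in ET and LT Lpin2 had 7.27 and 7.97 against 15.6 and 13.2 for the Pnpla2 unit. Levels per kb of a merged unit average over all its genes.

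Lpin1 had its lowest level in IBA, the warm interval between torpor bouts. It had 2417, 4496 and 1360 CPM in SA replicates 1 to 3, 916, 714 and 595 in IBA, 4576, 1783 and 4405 in Ent, 3976, 1832 and 3063 in ET, and 2521 and 2445 in LT replicates 1 and 3. Every IBA library lay below every library of the other states, whereas SA, Ent, ET and LT overlapped one another. Without overlap, units were higher in Ent, ET and LT than in IBA in 16.8% of the table, a share that leaves SA out. The state means were 741 ± 162 CPM for IBA (SD, n = 3), 2483 ± 53.7 for LT (SD, n = 2), 2758 ± 1595 for SA (SD, n = 3), 2957 ± 1076 for ET (SD, n = 3) and 3588 ± 1566 for Ent (SD, n = 3).

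In the 4 comparisons with IBA given here, the differences of Lpin1 were the largest in size among the members. None of these 4 passed 0.001 with edgeR, whereas all did with DESeq2. From SA to IBA the log2 fold change was -1.90 (SE 0.45, adjusted p = 0.0294), and the level in IBA was 0.269 times that in SA. At an adjusted p of 0.05, 5.22% of all units passed in this step. From IBA to Ent the log2 fold change was 2.28 (SE 0.46, adjusted p = 0.00791), a 4.84-fold difference, beside 16.1% of all units passing 0.05. From LT back to IBA it was -1.74 (SE 0.48, adjusted p = 0.00996), beside 49.8%. Between IBA and the mean of ET and LT it was 1.87 (SE 0.43, adjusted p = 0.00228), beside 59.5%. These comparisons share the IBA libraries. Within the season that SA, IBA and Ent have in common (2, 3 and 1 libraries), the log2 fold change was -1.98 from SA to IBA and 2.59 from IBA to Ent, with adjusted p = 0.0962 and 0.0639 from edgeR. Without IBA replicate 3 the adjusted p from SA to IBA was 0.131.

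Lpin2 had its lowest levels in the 2 torpid states. It had 2316, 1298 and 1307 CPM in SA, 2418, 965 and 937 in IBA, 830, 798 and 1621 in Ent, 607, 345 and 779 in ET, and 614 and 652 in LT. The 5 ET and LT libraries lay below all SA, IBA and Ent libraries, where 20.7% of all units were lower without overlap from Ent to ET, and 1 library each of SA, IBA and Ent stood well above the others of its state. Units lower without overlap from IBA to ET and LT made up 29.7% of the table. The share below SA, IBA and Ent together was not counted. The log2 fold change from IBA to the mean of ET and LT was -1.25 (SE 0.38, adjusted p = 0.0119) and that from SA to the mean of the 4 hibernation states was -0.92 (SE 0.32, adjusted p = 0.0344, beside 44.3% of all units at 0.05), neither of them called at 0.001. Without IBA replicate 1 the first was -0.65 (adjusted p = 0.135), and without SA replicate 1 the second was -0.58 (adjusted p = 0.228). From SA to IBA the log2 fold change was -0.19, with a 95% interval from -1.11 to 0.73.

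The paralogs thus differed in which of them had the higher level. Within a library the ratio of their reads per kb does not depend on how libraries are scaled. The ratio of Lpin1 to Lpin2 was 0.897, 2.98 and 0.894 in SA, 0.326, 0.636 and 0.546 in IBA, 4.74, 1.92 and 2.34 in Ent, 5.63, 4.57 and 3.38 in ET, and 3.53 and 3.22 in LT. Lpin2 had more reads per kb than Lpin1 in all 3 IBA libraries and in SA replicates 1 and 3, and Lpin1 had more in SA replicate 2 and in every Ent, ET and LT library. The ratio averaged 0.503 ± 0.160 over the IBA libraries (SD, n = 3) and 4.53 ± 1.13 over those of ET (SD, n = 3). No test was made of the ratio, which was computed after both genes' values were known.

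**Figure D2:**
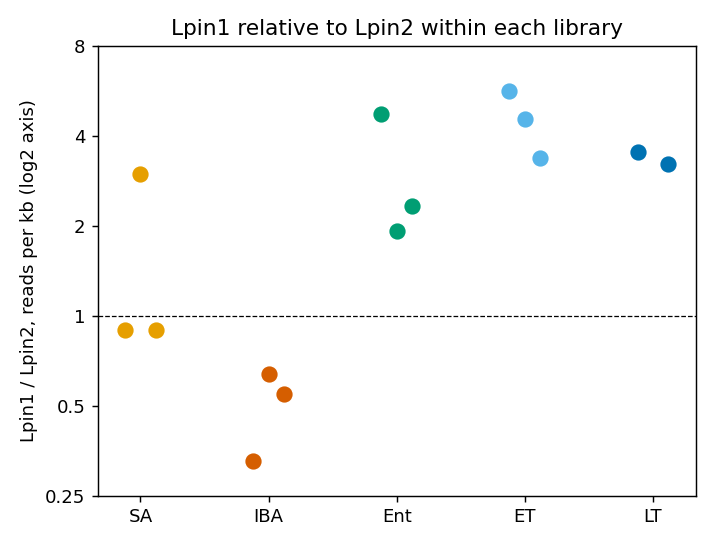
Ratio of Lpin1 to Lpin2 in reads per kb (vertical axis, log2 scale) in each library, by state; the dashed line marks equal levels. The 3 IBA libraries lie between 0.326 and 0.636, below the line, and the 8 Ent, ET and LT libraries lie between 1.92 and 5.63, above it.

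The Dgat2 unit fell from the active season to hibernation. It had 2293, 1014 and 2140 CPM in SA, 648, 800 and 701 in IBA, 933, 545 and 750 in Ent, 651, 671 and 675 in ET, and 913 and 666 in LT. All SA libraries lay above all 11 hibernation libraries, as did those of 3.92% of all units, though SA replicate 2 lay close to the highest of the hibernation libraries. The mean was 1816 ± 699 CPM in SA (SD, n = 3), and the means of the 4 hibernation states lay between 666 and 790 CPM. From SA to the mean of the 4 hibernation states the log2 fold change was -1.32 (SE 0.20, adjusted p = 0.000362), so that the hibernation level was 0.400 times the SA level. The call was lost without SA replicate 1 (adjusted p = 0.00324), without SA replicate 3 (0.00353), without LT replicate 3 (0.00125) and with limma-voom (0.00143). Cfd, the adipocyte marker with a unit, was also called lower in this comparison.

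A difference of similar size was seen in the comparison of SA with IBA alone. From SA to IBA the log2 fold change of the Dgat2 unit was -1.34 (SE 0.28, adjusted p = 0.0151), and within the shared season it was -1.14 (adjusted p = 0.124). Among the hibernation states the libraries of IBA, Ent, ET and LT overlapped. The fitted difference (log2) was 0.05 between IBA and Ent, with a 95% interval from -0.54 to 0.65, and 0.02 from IBA to the mean of ET and LT, with an interval from -0.52 to 0.56. The intervals were wider for ET to LT, at -0.42 to 0.91, and for LT to IBA, at -0.81 to 0.52. The unit spans 354389 nt, of which an unknown share of the reads belongs to Uvrag.

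The Plin2 unit, with the gene for the main hepatocyte droplet coat protein, was lowest in torpor. The authors show Plin2 and Haus6 among adjacent gene pairs in which the downstream gene gained GRO-seq reads from ET to LT. They propose that polymerases ran past the end of the upstream gene. The share of such reads in the merged unit was not tested. The unit had 568, 1227 and 751 CPM in SA, 794, 1023 and 936 in IBA, 1397, 596 and 558 in Ent, 303, 552 and 436 in ET, and 335 and 433 in LT. All ET and LT libraries lay below all libraries of SA, IBA and Ent, but ET replicate 2 was separated from Ent replicate 3 by only a few CPM. Of all units, 29.7% were lower without overlap from IBA to ET and LT, and 20.7% from Ent to ET. Units below SA, IBA and Ent together were not counted here either. The log2 fold change from IBA to the mean of ET and LT was -1.18 (SE 0.32, adjusted p = 0.00733, beside 59.5% of all units at 0.05). The torpid level was thus 0.443 times that in IBA. From LT to IBA the log2 fold change was 1.26 (SE 0.42, adjusted p = 0.0259, beside 49.8% of all units at 0.05). Neither was called at 0.001. Without LT replicate 1 the adjusted p from LT to IBA was 0.161. From SA to IBA the log2 fold change was 0.11, with a 95% interval from -0.67 to 0.90.

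The Plin4/Plin5 unit did not pass the joint test at either threshold (adjusted p = 0.109). Plin5 is the perilipin of tissues that burn fatty acids and ties droplets to mitochondria. The unit had 85.8, 134 and 130 CPM in SA, 67.4, 120 and 94.4 in IBA, 257, 208 and 107 in Ent, 172, 99.6 and 135 in ET, and 119 and 183 in LT. The libraries of every pair of neighbouring states in the order of the means (IBA, SA, ET, LT, Ent) overlapped. Its largest difference was from IBA to Ent, at a log2 fold change of 1.02 (SE 0.33, adjusted p = 0.0522), and it rested on Ent replicates 1 and 2. Within the shared season, which holds Ent replicate 3 alone, the log2 fold change was 0.20.

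The Pnpla2 unit, with the gene for the lipase that begins triglyceride breakdown, rose in torpor. It had 158, 183 and 158 CPM in SA, 114, 177 and 168 in IBA, 242, 234 and 188 in Ent, 482, 280 and 364 in ET, and 303 and 335 in LT. Every Ent library lay above every SA and IBA library, and every ET and LT library lay above every Ent library. Units higher without overlap made up 22.5% of the table from IBA to Ent and 22.6% from Ent to ET. The share with the whole order was not counted. The means were 153 ± 34.1 CPM for IBA (SD, n = 3), 166 ± 14.2 for SA (SD, n = 3), 221 ± 29.1 for Ent (SD, n = 3), 319 ± 22.6 for LT (SD, n = 2) and 375 ± 101 for ET (SD, n = 3).

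From IBA to the mean of ET and LT the log2 fold change of the Pnpla2 unit was 1.18 (SE 0.19, adjusted p = 0.000213), a 2.26-fold rise with a 95% interval from 0.76 to 1.59 on the log2 scale. The call was lost without IBA replicate 1 (adjusted p = 0.00141), IBA replicate 3 (0.00101) or LT replicate 3 (0.00101). The single steps were smaller than this sum. The fitted difference (log2) was 0.53 between IBA and Ent (SE 0.20, adjusted p = 0.0931), 0.76 from Ent to ET (SE 0.20, adjusted p = 0.0151, beside 28.8% of all units at 0.05) and -1.06 from LT to IBA (SE 0.22, adjusted p = 0.00203). With season as an added term, the last was -0.94 (adjusted p = 0.0424). From SA to IBA it was -0.12, with a 95% interval from -0.56 to 0.33. Rplp2 is the first gene named in the unit, and its share of the reads is unknown. The 2 single-gene units most like the Pnpla2 unit in log2 CPM over the 14 libraries were Zbtb7b (Pearson r = 0.971) and Eif5a (r = 0.966), and both share the libraries and their depth with it. Zbtb7b averaged 53.6 ± 14.7 CPM over the IBA libraries (SD, n = 3) and 160 ± 11.7 over those of LT (SD, n = 2), and Eif5a averaged 62.9 ± 9.15 and 156 ± 15.8.

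No member differed between early and late torpor beyond the spread of the animals. The 6 log2 fold changes from ET to LT lay between -0.25 and 0.25, and the lowest adjusted p was 0.896. The 95% intervals were wide for the lipins, from -1.32 to 0.81 for Lpin1 and from -0.89 to 1.16 for Lpin2, and narrower for the Pnpla2 unit, from -0.73 to 0.26.

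**Figure D3:**
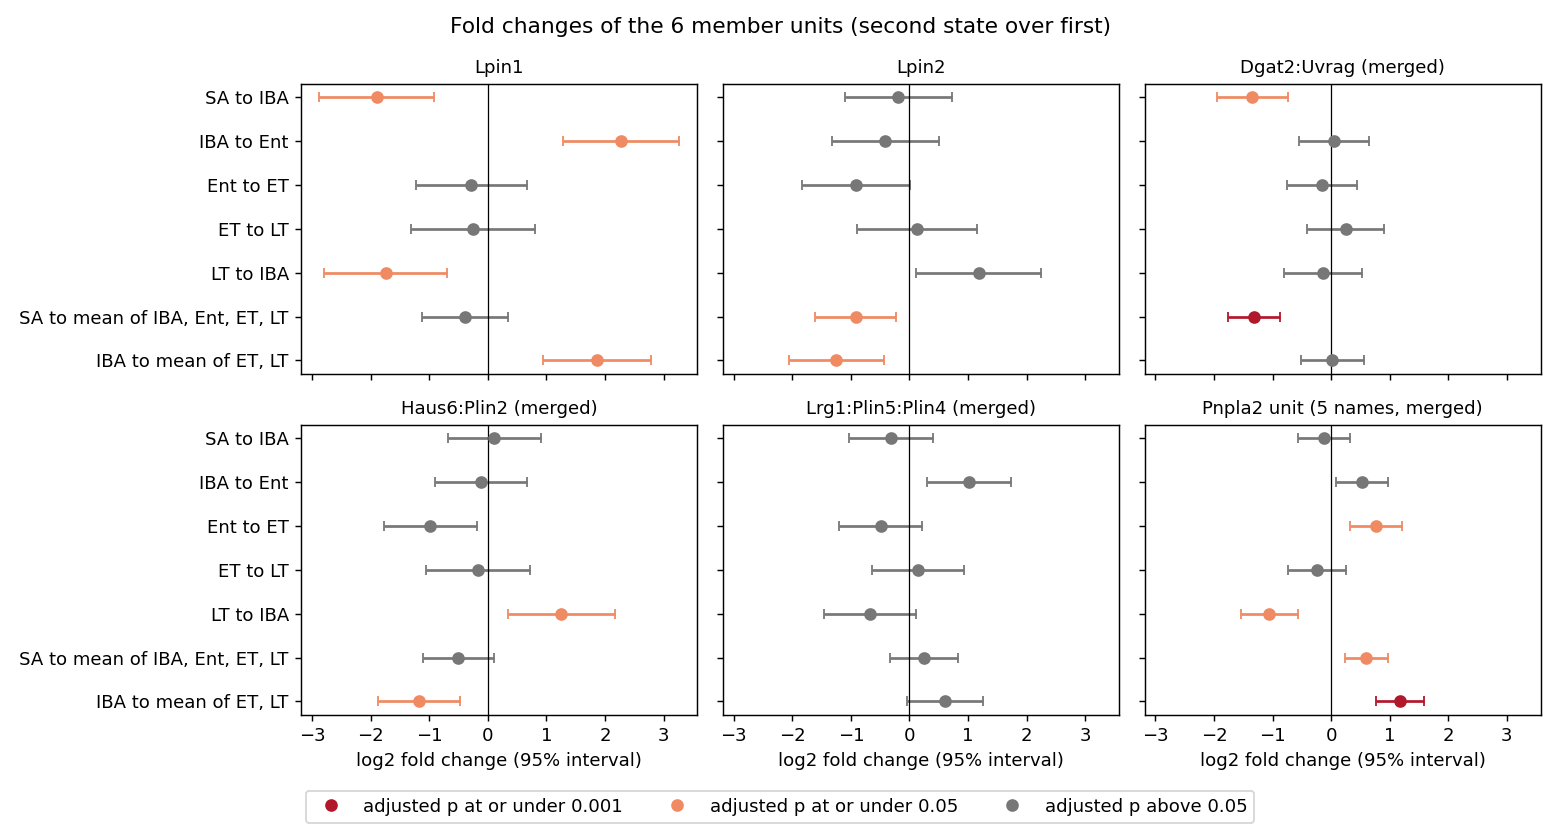
Log2 fold change (horizontal axis, second state over first) with 95% interval for each member unit in 7 comparisons; colour gives the adjusted p over all units. From IBA to the mean of ET and LT, Lpin1 (1.87) and the Pnpla2 unit (1.18) lie above 0, Lpin2 (-1.25) and the Plin2 unit (-1.18) lie below it, and the Dgat2 unit (0.02) lies at it.

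From IBA to torpor, then, the members did not differ in the same direction. Across the 14 libraries, log2 CPM of the Pnpla2 unit had a Pearson r of -0.78 with Lpin2, -0.66 with the Plin2 unit and 0.51 with Lpin1. These are 3 of 15 pairs, and the points share libraries, states and seasons.

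The other genes of the pathway were taken from lists of 60 symbols, of which 35 had a unit, 10 of these named for several genes. Over the 5 states together, 4 of the 35 units were called, 3 of them from the list for glycerolipid synthesis and 1 from that for lipolysis and its regulators, beside 25.5% of all units. From SA to the mean of the hibernation states, 1 was called higher and 2 lower, beside 4.19% and 6.83% of all units. Between IBA and the mean of ET and LT, 3 were called higher and 3 lower, beside 14.1% and 14.2% of all units. The median log2 fold change in this last comparison was -0.27 over the synthesis units, 0.10 over the droplet units and -0.01 over the lipolysis units, against -0.04 over all units. The units called in the joint test are Gpat3, Agpat1, Acsl3 and Abhd12. Fitm2, Abhd5, G0s2 and the Ces3 unit, called only from IBA to torpor, are named because their values were seen.

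Gpat3 and Agpat1 act ahead of the lipins, adding the first and the second acyl chain to glycerol phosphate. Gpat3 had 72.5, 95.7 and 32.0 CPM in SA and between 196 and 1016 CPM in the 11 hibernation libraries, all above SA, as in 3.18% of all units. It rose from SA to the mean of the hibernation states by 2.86 on the log2 scale (SE 0.40, adjusted p = 0.000183), opposite in direction to the Dgat2 unit, and the call was lost without SA replicate 1 (adjusted p = 0.00113). Agpat1 had 40.5, 38.8 and 32.6 CPM in SA, 33.5, 37.8 and 34.5 in IBA, 28.1, 17.4 and 12.7 in Ent, 4.86, 5.30 and 5.75 in ET, and 4.53 and 3.53 in LT. Its Ent libraries lay between those of the warm and the torpid animals with no overlap. Units lower without overlap made up 20.7% of the table from Ent to ET and 29.7% from IBA to ET and LT. The share with this whole order was not counted. Between IBA and the mean of ET and LT it fell by 2.93 on the log2 scale (SE 0.23, adjusted p = 1.47e-06), a call that held in all 22 alternatives. The ET and LT values rest on 24 to 36 reads per library. Gpam, Gpat4, Agpat2 and Agpat3, also in the list for glycerolipid synthesis, were not called in these comparisons. From SA to the mean of the hibernation states the log2 fold change was -0.51 for Gpam and -0.16 for Gpat4. From IBA to the mean of ET and LT it was 0.10 for Agpat2 and -0.89 for Agpat3.

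Acsl3, an acyl-CoA synthetase of growing droplets, had 71.6, 64.0 and 69.6 CPM in IBA and 147, 174, 139, 154 and 136 in the ET and LT libraries. Its log2 fold change from IBA to the mean of ET and LT was 1.13 (SE 0.19, adjusted p = 0.000248), and this call was lost without any 1 of the IBA libraries or LT replicate 1, with an adjusted p of up to 0.00209. Fitm2, which serves the budding of droplets from the endoplasmic reticulum, had 20.5, 28.2 and 24.6 CPM in IBA and 54.9, 49.5 and 60.3 in ET and 42.8 and 65.1 in LT, with a log2 fold change of 1.15 in the same comparison (SE 0.21, adjusted p = 0.000431). That call was lost without any 1 of the IBA libraries, ET replicate 3 or LT replicate 3, with an adjusted p of up to 0.00360.

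Among the units named after their values were seen, 2 regulators of the ATGL protein differed in opposite directions between IBA and torpor. Abhd5 is its activator and G0s2 its inhibitor. Neither was called in the joint test (adjusted p = 0.00188 for Abhd5 and 0.00128 for G0s2). Other regulators of the protein may have no unit, so the pair does not stand for all of them. Abhd5 had 42.9, 46.4 and 45.8 CPM in IBA, 81.4, 98.6 and 90.8 in ET, and 90.1 and 82.3 in LT, and rose by 0.97 on the log2 scale (SE 0.17, adjusted p = 0.000348). G0s2 had 89.0, 333 and 230 CPM in IBA, 16.8, 67.8 and 38.5 in ET, and 12.4 and 18.4 in LT, and fell by 3.12 on the log2 scale (SE 0.55, adjusted p = 0.000363). All torpid libraries of Abhd5 lay above IBA, as did those of 28.6% of all units, and all those of G0s2 lay below it, as did those of 29.7%. In Ent, Abhd5 had 50.8, 41.9 and 72.6 CPM and G0s2 had 594, 169 and 183. The call of Abhd5 was lost without any 1 of the IBA or LT libraries (adjusted p up to 0.00272), and that of G0s2 without IBA replicates 2 or 3, ET replicate 3 or either LT library (up to 0.00413).

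The remaining lipolysis units that were called were lower. The unit of the carboxylesterases Ces4a, Ces3 and CES2 had 645, 854 and 550 CPM in IBA, 381, 288 and 203 in ET and 183 and 321 in LT, and differed by a log2 fold change of -1.34 from IBA to the mean of ET and LT (SE 0.23, adjusted p = 0.000315). Without IBA replicate 1, IBA replicate 2 or LT replicate 1 it was not called (adjusted p up to 0.00251). Abhd12, a lysophospholipid lipase, had 57.4, 75.4 and 73.8 CPM in SA and between 32.3 and 54.6 in the hibernation libraries. It fell by 0.83 on the log2 scale from SA to the mean of the hibernation states (SE 0.12, adjusted p = 0.000293), and was not called without SA replicate 2 or 3 (adjusted p up to 0.00293).

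**Figure D4:**
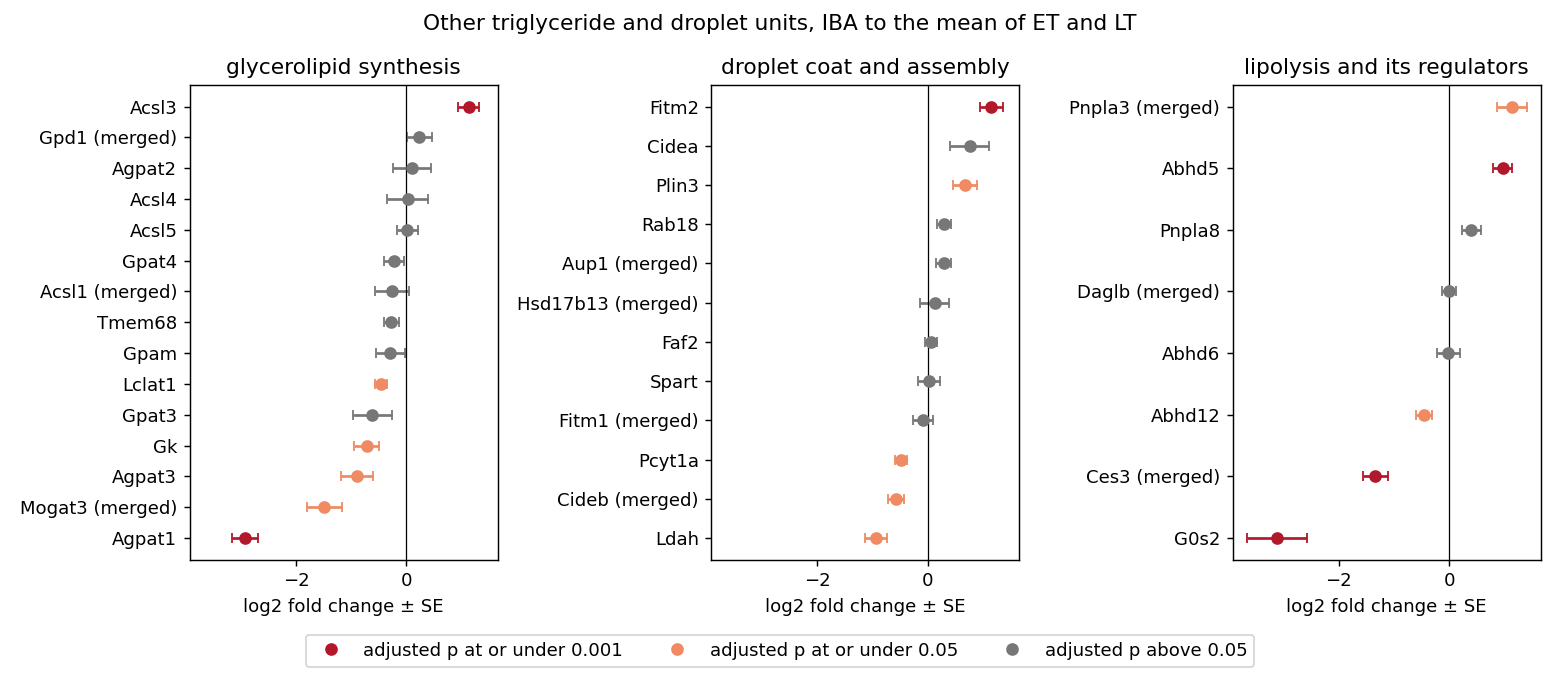
Log2 fold change ± SE from IBA to the mean of ET and LT for the 35 other units of the pathway, by list; colour gives the adjusted p over all units, and merged units are marked. Agpat1 (-2.93) and G0s2 (-3.12) lie farthest below 0, and Acsl3 (1.13), Fitm2 (1.15) and Abhd5 (0.97) are the units called above it.

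**Figure D5:**
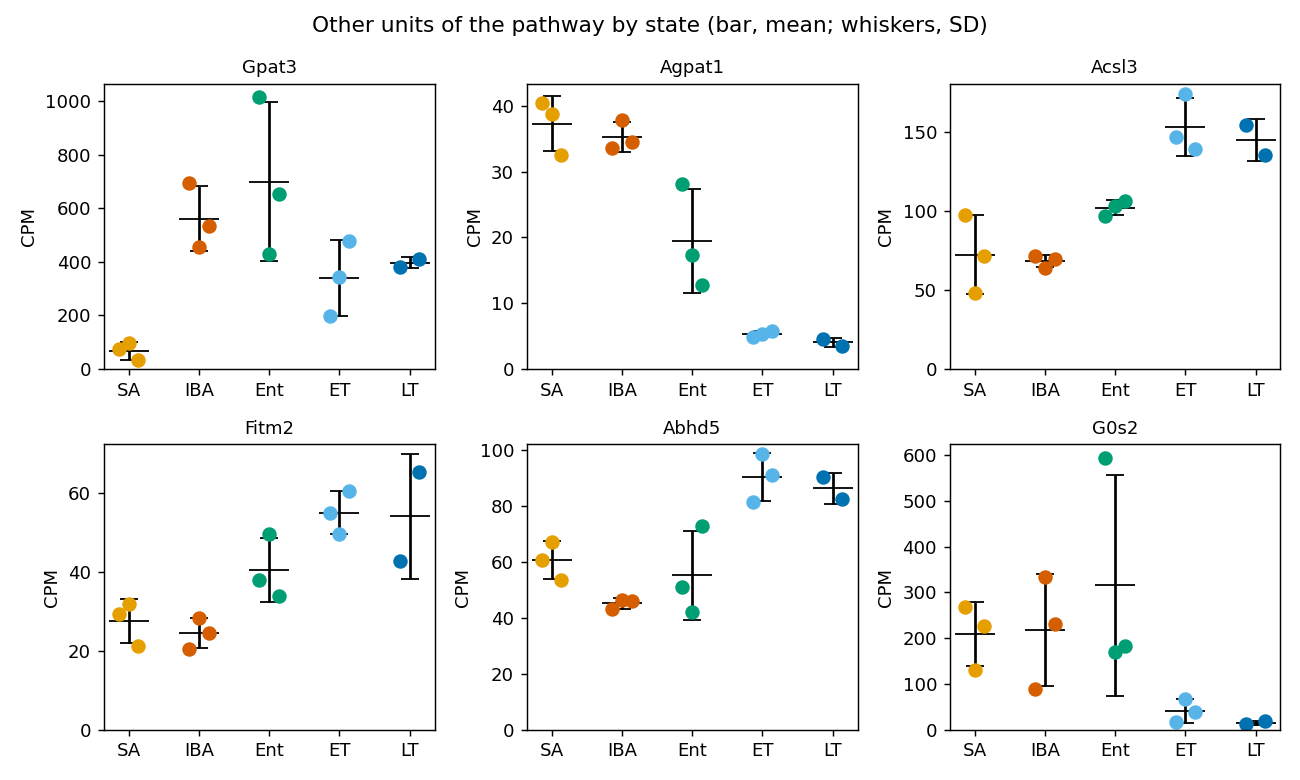
Level in CPM (vertical axis, from 0) of 6 pathway units in every library, by state; bars are means and whiskers SDs (n = 3, and n = 2 for LT). Gpat3 lies at 32.0 to 95.7 in SA and above that in every hibernation library, Agpat1 and G0s2 are lowest in ET and LT, and Abhd5, Acsl3 and Fitm2 are higher in ET and LT than in IBA.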

How the data were processed

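GRO-seq libraries of 14 livers were analysed. The authors trimmed the reads with cutadapt, aligned them to HiC_Itri_2 with BWA, redrew gene bodies with fstitch, merged overlapping genes, dropped the first 500 nt and deposited raw counts from featureCounts, without normalization. Because gene bodies were redrawn and merged from these reads, a unit can hold transcription that ran past a gene's end. Counts were normalized by TMM and fitted with edgeR 4.0.16 (R 4.3.3) with state as the only term. Log2 CPM used a prior count of 2. DESeq2 1.42.0, limma-voom (limma 3.58.1) and other alternatives appear in the closing section. Steps were tested on simulated data.

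The members, gene lists and markers were chosen with earlier results of these data known. Named beyond the members are up to 3 units per list with the smallest p among those called in the joint test, and for a called member the 2 single-gene units with the highest Pearson r. Fitm2, Abhd5, G0s2 and the Ces3 unit fall outside this rule and were named after their values were seen. Groups of 2 or 3 libraries allow no test for outliers. No sequences were used here. Figures used matplotlib 3.10.9.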

Additional observations from a re-analysis of the deposited data

How the results depend on the processing

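Of the 42 fold changes of the 6 members, all 42 kept their direction with DESeq2, limma-voom, upper-quartile normalization, DESeq2 size factors in edgeR and a minimum of 10 counts, as did all 14 that single-gene units allow, 41 when scaled to uniquely mapped reads and 38 with a replicate block. The number of members called rested on the threshold and the tool. At an adjusted p of 0.05 it was 5 in the joint test, 2 from SA to IBA, 1 in the step to Ent, 1 in that to ET, 3 from LT to IBA, 3 from SA to hibernation and 4 from IBA to torpor. DESeq2 at 0.001 gave 3, 2, 1, 0, 2, 1 and 2, beside 50%, 3.5%, 7.07%, 14.8%, 31.9%, 25.2% and 41.5% of all units. Limma-voom called 0 from SA to hibernation and 2 from IBA to torpor, and scaling to uniquely mapped reads 1 from LT to IBA and 2 from IBA to torpor. With single-gene units only, which leave 2 members, 0 were called in the joint test, from SA to hibernation and from IBA to torpor. With each library left out, the count lay between 0 and 2 in the joint test and from IBA to torpor, between 0 and 1 from LT to IBA and from SA to hibernation, and was 0 in the other steps. The cause was not tested.

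The replicate block left 0 members called in the joint test (the Pnpla2 unit at an adjusted p of 0.00216). Of 26 pairs of same-numbered libraries, 6 had deviations correlated above 0.1, and r spanned -0.26 to 0.23. These values cannot show whether the numbers carry a shared effect. In both SA and Ent, replicate 1 came from the season of LT and replicate 3 from that of IBA. The block thus partly follows season there. Under the block, Lpin2 from ET to LT was -0.045 on the log2 scale, and the Dgat2 unit was -0.00033 from IBA to Ent, 0.0077 from LT to IBA and -0.064 from IBA to torpor, signs opposite to the main ones. The other reversed values reached 0.19 in size. Within the shared season Lpin2 was 0.14 from SA to IBA and 0.19 from IBA to Ent, and the Plin2 unit -0.11 from SA to IBA. With season as a term the Dgat2 unit was -0.11 from IBA to Ent and 0.12 from LT to IBA. Scaled to mapped reads, the Plin2 unit was 0.032 from IBA to Ent. Single libraries left out reversed 21 of 588 values. The log2 fold changes concerned, with each library left out, were -0.50 to 0.021 from ET to LT and -0.72 to 0.15 from SA to hibernation for Lpin1. For Lpin2 they were -0.79 to 0.14 from SA to IBA, -0.82 to 0.19 from IBA to Ent and -0.13 to 0.41 from ET to LT, and for the Plin4/Plin5 unit -0.19 to 0.43 from ET to LT. For the Plin2 unit they were -0.11 to 0.48 from SA to IBA, -0.67 to 0.12 from IBA to Ent and -0.37 to 0.054 from ET to LT, and for the Pnpla2 unit -0.23 to 0.054 from SA to IBA. For the Dgat2 unit they were -0.15 to 0.23 from IBA to Ent, -0.32 to 0.040 in the step to ET, -0.35 to 0.10 from LT to IBA and -0.10 to 0.12 from IBA to torpor.

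Scaling to uniquely mapped reads moved the median log2 fold change of all units by 0.15 from IBA to Ent, 0.12 in the step to ET, -0.18 from LT to IBA, 0.15 from SA to hibernation and 0.22 from IBA to torpor. The share of calls that were higher went from 45.7% to 71.3% from Ent to ET, 44.4% to 28.5% from LT to IBA, 38.0% to 61.1% from SA to hibernation and 49.9% to 68.1% from IBA to torpor.

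Of the 35 other pathway units, 4 were called in the joint test, 14 with DESeq2 (beside 50% of all units), 1 with the replicate block, 1 without IBA replicate 3, ET replicate 2 or either LT library, and 2 without SA replicate 3, IBA replicate 2, Ent replicates 1 or 2 or ET replicates 1 or 3. From IBA to torpor 6 were called, 11 with DESeq2 (beside 41.5%), 2 without IBA replicate 1, IBA replicate 3 or LT replicate 1, 1 without IBA replicate 2 and 3 without LT replicate 3.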
